A study of Homo sapiens with 36 samples.

Results

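Mitotic kinases with their cyclins, kinetochore and checkpoint genes, and spindle and cytokinesis genes were followed through PFOA exposure of EA.hy926 cells. The 46 genes were taken by symbol from the 47137 genes that each expression table lists, of which 18048 hold values. All 46 were found, and all 46 had a mean of at least 10 normalised reads in each of the 3 tables. The rule used gene names and no measured value, but the genes were chosen with earlier results of these data known.

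EA.hy926 is a human macrovascular endothelial hybrid line, and PFOA (perfluorooctanoic acid) is a persistent perfluoroalkyl acid. The 36 libraries formed 12 groups of 3 biological replicates. Cells were given 0.05% DMSO alone (the vehicle control) or PFOA at 1, 10 or 100 µM for 48 h, or at 1, 10 or 100 nM for 6 weeks or 12 weeks, and each time had its own vehicle control. All groups shared serum-containing medium with HAT supplement (hypoxanthine, aminopterin and thymidine), which bears on nucleotide supply in dividing cells. The cells of the 48 h exposure were lysed in dishes, and those of the long exposures came from flasks at a passage. Values are normalised read counts, scaled by the authors with 1 size factor per library, and differences are on the log2(value + 1) scale with their standard error. This scale understates the change of low genes. The labels call the replicates biological without saying how they were separated.

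Entry into mitosis is driven by CDK1 bound to cyclin B, which CDC25 phosphatases activate and which works beside the polo-like kinase PLK1 and the Aurora kinases. The kinetochore, built on CENPA chromatin, holds microtubules through the KNL1 and NDC80 complexes, and the spindle checkpoint keeps CDC20 from activating the anaphase-promoting complex until chromosomes are attached. Motor proteins and bundling factors then part the chromosomes and cut the cell, and most of these genes are transcribed mainly in G2 and mitosis.

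Promoters of such genes are known for the cell cycle homology region (CHR, TTTGAA or TTCGAA) and for CCAAT boxes, the sites of MuvB complexes and of NF-Y. RefSeq promoters of GRCh38.p14, from 250 bases before to 50 after a gene's start, were matched for 37 of the 46 genes. On either strand, TTTGAA or TTCGAA stood in 29 of the 37 (78.4%), against 19.5% of 27305 genes. CCAAT stood in 31 (83.8%), against 39.7% of genes. Both stood in 25 (67.6%), against 7.85%. Counted over the 35116 single promoters, many genes having several, the shares were 16.4%, 34.6% and 6.38%. A match is a description of letters and not a bound site, and short motifs also occur by composition. The stretches of 130 bases that end just before the start are shown for 7 of the 37 genes. Capitals mark either CHR form and the CCAAT box, or their reverse complements, read 5′ to 3′ on the gene's strand.
CCNB1 (chr5:69167020-69167149, plus strand): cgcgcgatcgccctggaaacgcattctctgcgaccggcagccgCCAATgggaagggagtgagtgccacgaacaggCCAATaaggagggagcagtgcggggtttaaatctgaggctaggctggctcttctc
CCNB2 (chr15:59105016-59105145, plus strand): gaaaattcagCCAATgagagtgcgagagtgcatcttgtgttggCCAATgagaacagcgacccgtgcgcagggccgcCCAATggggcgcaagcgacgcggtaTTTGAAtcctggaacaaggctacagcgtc
CDC20 (chr1:43358851-43358980, plus strand): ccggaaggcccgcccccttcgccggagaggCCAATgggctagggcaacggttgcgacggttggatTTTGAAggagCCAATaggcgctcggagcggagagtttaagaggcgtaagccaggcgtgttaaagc
PLK1 (chr16:23678759-23678888, plus strand): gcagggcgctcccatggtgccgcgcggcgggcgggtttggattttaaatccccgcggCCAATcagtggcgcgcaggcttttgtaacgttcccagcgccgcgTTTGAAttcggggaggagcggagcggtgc
MKI67 (chr10:128126424-128126553, minus strand): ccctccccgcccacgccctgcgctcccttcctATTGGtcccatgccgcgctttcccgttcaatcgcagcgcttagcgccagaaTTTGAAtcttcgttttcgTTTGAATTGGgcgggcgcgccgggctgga
INCENP (chr11:62123881-62124010, plus strand): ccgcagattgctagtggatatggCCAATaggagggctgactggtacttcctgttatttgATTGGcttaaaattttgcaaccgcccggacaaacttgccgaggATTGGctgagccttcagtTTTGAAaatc
ANLN (chr7:36389732-36389861, plus strand): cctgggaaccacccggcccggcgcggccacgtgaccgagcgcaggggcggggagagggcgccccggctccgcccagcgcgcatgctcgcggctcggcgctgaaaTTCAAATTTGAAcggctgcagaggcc
CCNB2 held 3 CCAAT boxes before a TTTGAA, and CDC20 and PLK1 held both motifs as well. In MKI67 the TTTGAA nearest the start overlapped a reverse CCAAT. Of the letters searched for, CCNB1 held CCAAT boxes alone in these 130 bases, and ANLN held CHR letters alone. Other forms of the CHR were not searched for.

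Reads per library ran from 17815292 to 19466331. The size factors ran from 0.540 to 1.36. Ribosomal protein genes took 9.33% to 22.1% of the reads, with wide differences inside groups. Of 15 endothelial marker genes 13 had a mean of at least 10 at each time, including CDH5 and PECAM1, while KDR and CLDN5 were near or at 0. Keratins KRT7, KRT8 and KRT18 were high, CDH1 was near or at 0, and of 6 leukocyte markers only CD68 reached a mean of 10. The log2 ratio of the deposited size factors to factors recomputed over all 36 libraries had a mean of -0.024 at 48 h, -0.025 at 6 weeks and -0.027 at 12 weeks, nearly the same offset each time. Against factors recomputed within each table it was 0.011, 0.0051 and -0.092, closer to 0 at 48 h and 6 weeks and farther at 12 weeks. Levels are set side by side across times without a test, and also in RPM.

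Of all reads, the 46 genes held 0.195% to 0.411% in the 12 libraries of 48 h. The 6-week libraries held 0.268% to 0.515%, and the 12-week libraries 0.109% to 0.215%. The 12-week libraries thus did not overlap the 6-week ones, and they overlapped the lower end of the 48 h range.

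**Figure D1:**
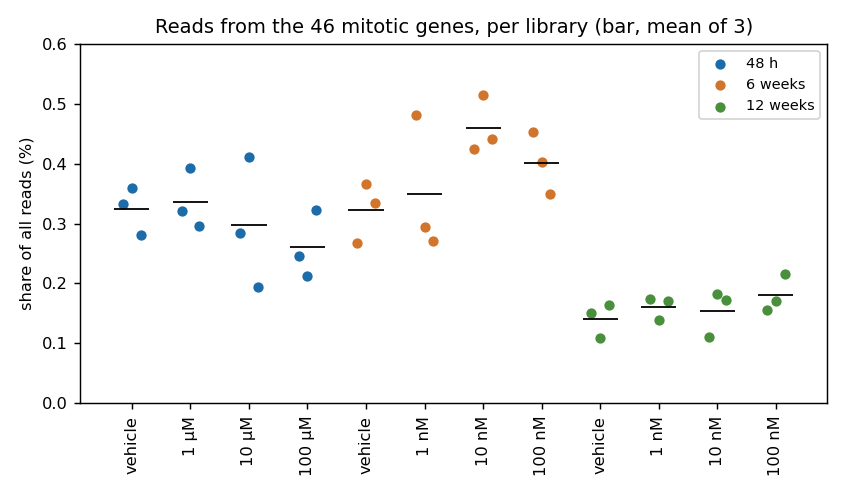
Share of all reads (%, y axis) that came from the 46 mitotic genes in each library, by group (x axis), with a bar at the mean of 3. The 12 libraries at 12 weeks lie between 0.109% and 0.215%, below all 12 at 6 weeks (0.268% to 0.515%).

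Levels per transcript length spread widely among the 46. In the 48 h vehicle libraries UBE2C, the ubiquitin-conjugating enzyme of the anaphase-promoting complex, stood at an RPKM (reads scaled by transcript length and library total) of 188, CDC20 at 178 and PTTG1, the securin that restrains separase, at 153. At the other end of the per-length scale KNL1 stood at 1.08, the kinetochore motor CENPE at 1.36 and the spindle-pole protein ASPM at 1.87. The same 3 genes were lowest and the same 3 highest in the vehicle libraries of 6 and 12 weeks. Length was that of a gene's longest transcript, 8612 to 10887 nt for the 3 lowest and 914 to 1777 nt for the 3 highest. Which transcript forms were in use was not measured. The 3 lowest also had a GC content of 35.3% to 38.1%, and GC-linked differences between libraries are described below.

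In the vehicle libraries every one of the 46 genes had a lower mean at 12 weeks than at 6 weeks. The median log2 ratio of the means was -1.32, against 0.04 over 11951 genes. In 31 of the 46 all 3 libraries at 12 weeks lay below all 3 at 6 weeks, where 6.38% of all genes did so and 5.82% lay wholly above. With scaling to the library total (RPM) in place of the deposited scaling, 45 were lower (all but CDC25B, at 0.016) and 23 of 46 did not overlap (background 6.9%). Over all 12 libraries a time, PFOA groups included, 15 of the 46 lay wholly below with the deposited scaling (background 1.54%) and none wholly above. These 15 were AURKA, BIRC5, CCNB1, CDC25C, CDCA2, CDCA3, DLGAP5, ESPL1, KIF20A, KIF2C, MKI67, NUSAP1, PRC1, SPC25 and TPX2. In RPM 15 also lay wholly below (background 1.87%), but not the same 15. They held 2 spindle and cytokinesis genes, where the deposited scaling gave 6. Fewer dividing cells and less of each RNA per cell cannot be told apart in bulk RNA, nor can the time in culture and the harvest or processing of each time. The ribosomal protein share was 17.2% to 19.4% in the vehicle libraries of 6 weeks and 16.4% to 21.4% in those of 12 weeks. No p-value was computed between times.

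The 5 chromatin and entry genes were all apart with the deposited scaling, and 4 of them in RPM (6.38% and 6.9% of all genes). These shares of all genes apply to the roles below as well. MKI67, the coat protein of mitotic chromosomes behind the Ki-67 proliferation marker, read 2732, 2557 and 2407 in the vehicle libraries of 6 weeks and 578, 739 and 545 at 12 weeks. The mean at 12 weeks was 0.242 times that at 6 weeks, and the groups were far from overlapping. Over all 12 libraries of a time MKI67 spanned 2154 to 3507 at 6 weeks, and 486 to 799 at 12 weeks. CDCA2, a chromatin-bound regulator of PP1 phosphatase, had a mean of 518 at 6 weeks and 142 at 12 weeks in vehicle. TOP2A, the topoisomerase that untangles sister chromatids, read 913, 1482 and 1729 at 6 weeks and 560, 291 and 790 at 12 weeks, so that its groups were apart by a small gap. FOXM1, a transcription factor of G2 genes, had the log2 ratio closest to 0 of the 5, at -1.16.

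Of 9 kinases, cyclins and their phosphatases, 5 were wholly lower with the deposited scaling and 4 in RPM. CCNB1, cyclin B1, read 3086, 3740 and 2663 at 6 weeks and 1103, 813 and 857 at 12 weeks (log2 ratio -1.77). PLK1 read 4798, 2653 and 2822, then 900, 1819 and 873 (-1.51). For AURKA the log2 ratio was -1.35. CDK1 overlapped, with 571, 1217 and 1014 at 6 weeks and 619, 280 and 739 at 12 weeks. CDC25B alone among the 46 had nearly the same mean at both times, 3737 and 3732. It read 4382, 3550 and 3279, then 3741, 4423 and 3030. CDC25C, the other CDC25 phosphatase of the list, had a log2 ratio of -1.33 without overlap.

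All 4 genes of the chromosomal passenger complex, which corrects faulty attachments, were wholly lower under either scaling. INCENP, its scaffold, read 761, 320 and 540 at 6 weeks and 81.3, 209 and 174 at 12 weeks. AURKB, its kinase, read 3356, 1732 and 1835, then 538, 1122 and 416. The log2 ratios were -1.80 for INCENP, -1.74 for AURKB, -1.67 for BIRC5 (survivin) and -1.36 for CDCA8 (borealin).

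Of 12 spindle and cytokinesis genes 10 were wholly lower with the deposited scaling and 5 in RPM. KIF20A, a kinesin of the central spindle, had the lowest log2 ratio of the 46 (-2.21), with 1293, 1853 and 1800 at 6 weeks and 359, 256 and 451 at 12 weeks. TPX2, which activates Aurora A on the spindle, read 3727, 4480 and 3277, then 1426, 1254 and 1313. Its 3 libraries within each group lay close together. KIF23 and HMMR were the exceptions with the deposited scaling, and HMMR had a log2 ratio of -0.53.

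The kinetochore group was mixed, with 4 of 8 wholly lower with the deposited scaling and 2 in RPM. SPC25, a subunit of the NDC80 complex, read 183, 387 and 143 at 6 weeks and 99.1, 44.5 and 53.5 at 12 weeks. With the deposited scaling its partner SPC24 and the centromeric CENPA and CENPF were also apart, while NDC80, NUF2, KNL1 and CENPE overlapped. None of the 4 checkpoint genes was apart, and BUB3 had the log2 ratio closest to 0 among them (-0.50). In the axis of CDC20, UBE2C, PTTG1 and separase (ESPL1), 3 of 4 were apart with the deposited scaling and all 4 in RPM. CDC20 itself overlapped with the deposited scaling alone, where replicate 2 at 12 weeks read 9126 and replicate 3 at 6 weeks 8157.

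**Figure D2:**
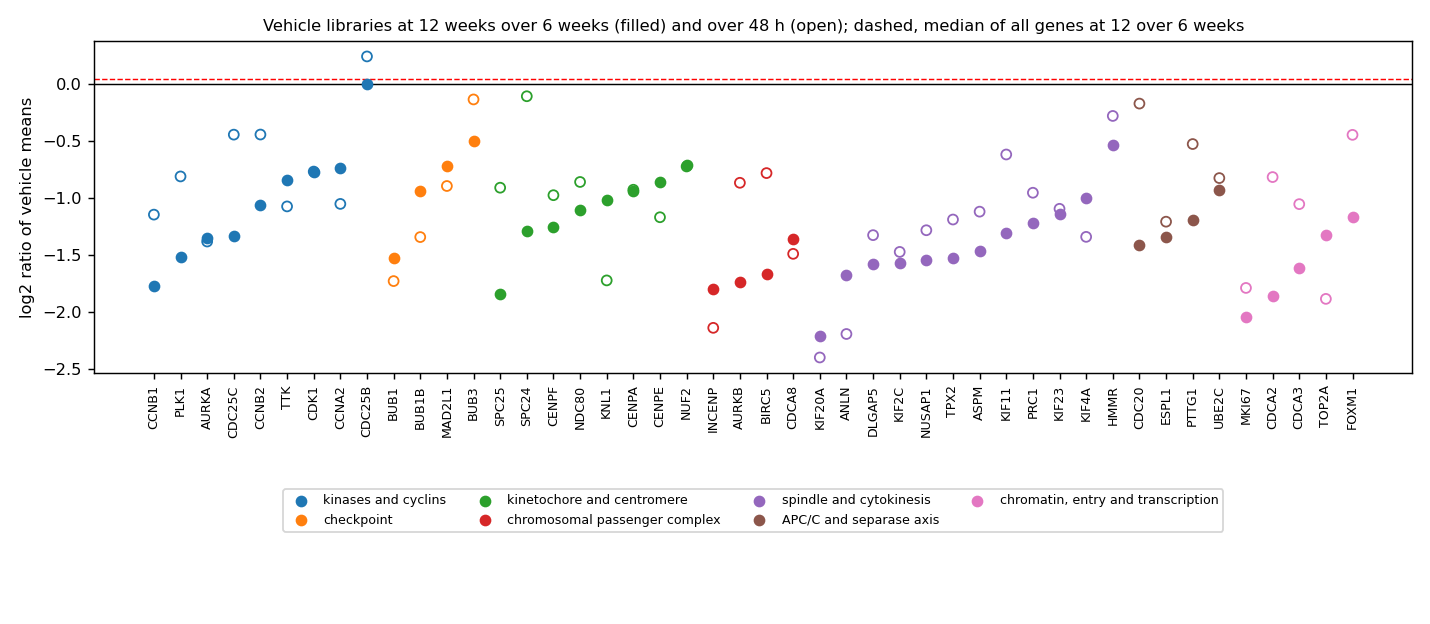
Log2 ratio of vehicle means (y axis) for each of the 46 genes (x axis, coloured by role), 12 weeks over 6 weeks (filled) and 12 weeks over 48 h (open). All filled points lie at or below 0, from -2.21 for KIF20A to about 0 for CDC25B, and the dashed line marks the median of all genes, 0.04.

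Against the vehicle of 48 h, 45 of the 46 were lower at 12 weeks, with a median log2 ratio of -1.01, and 35 lay wholly below (background 12.5%). In RPM the median was -1.34, where that of all genes was -0.33. Between 6 weeks and 48 h the direction in the vehicle libraries depended on the scaling. With the deposited values 31 of 46 were higher at 6 weeks (median 0.25, 15 wholly above, background 14.4%), and in RPM 14 were (median -0.18, all genes -0.41). Without vehicle replicate 2 of 6 weeks the deposited values gave a median of -0.01. Over all 12 libraries a time, PFOA groups included, 45 of the 46 had a higher mean at 6 weeks than at 48 h under either scaling, all but CDC25B. The median was 0.37 with both, against 0.04 over all genes with the deposited values and 0.06 in RPM. With the deposited values none of the 46 was wholly above (background 0.201%). Lysis in the dish and collection at a passage also separate 48 h from the long exposures, and the part of either was not tested.

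Related genes outside the 46 were counted in the vehicle libraries of 12 and 6 weeks by lists, with the deposited scaling unless RPM is named. Means at 12 weeks were lower for all 19 other mitotic kinases and regulators and all 30 other kinetochore genes. They were also lower for all 24 other motor, spindle and cytokinesis genes. Of these 3 lists 9, 13 and 10 genes lay wholly below, beside the 6.38% of all genes. In RPM 19, 26 and 24 were lower, and 5, 6 and 8 wholly so (background 6.9%). The condensin and cohesin genes were divided, with 11 of 16 lower and 4 wholly so, and of 15 subunits and inhibitors of the anaphase-promoting complex 1 was wholly lower, a share near that of all genes. Of 22 replication licensing genes, which act in G1 and S phase, 20 were lower and 14 wholly so, with a median of -1.39. In RPM 19 of the 22 were lower and 8 wholly so, with a median of -1.32. These replication genes thus shared the lower level. The regulators of the programme (DREAM, MYB-MuvB and E2F genes) had a median of -0.09 over 23, with 15 lower and 3 wholly so. Their log2 ratios ran from -2.26 to 0.58. Among them E2F1 had 1837 ± 888 at 6 weeks and 410 ± 274 at 12 weeks (SD, n = 3), while the CDK inhibitor CDKN1A stood at 10710 ± 6440 and 11170 ± 8240.

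The effect of PFOA was tested within each time with limma, with Benjamini-Hochberg adjustment over all genes tested. No member passed an adjusted p of 0.05 for any dose, dose trend or difference between 12 and 6 weeks, and no other gene did (0% of 12233, 12201, 12304 and, for the differences, 12037 genes). edgeR's quasi-likelihood test also called no member in any of these 15 comparisons, and no gene in any of them. DESeq2 called members at 6 weeks, for 10 nM and for the dose trend, and in none of the other 13 comparisons. What follows are therefore values that did not pass, with their spread. With 3 libraries against 3 an exact permutation test of a single gene cannot go below p = 0.1.

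**Figure D3:**
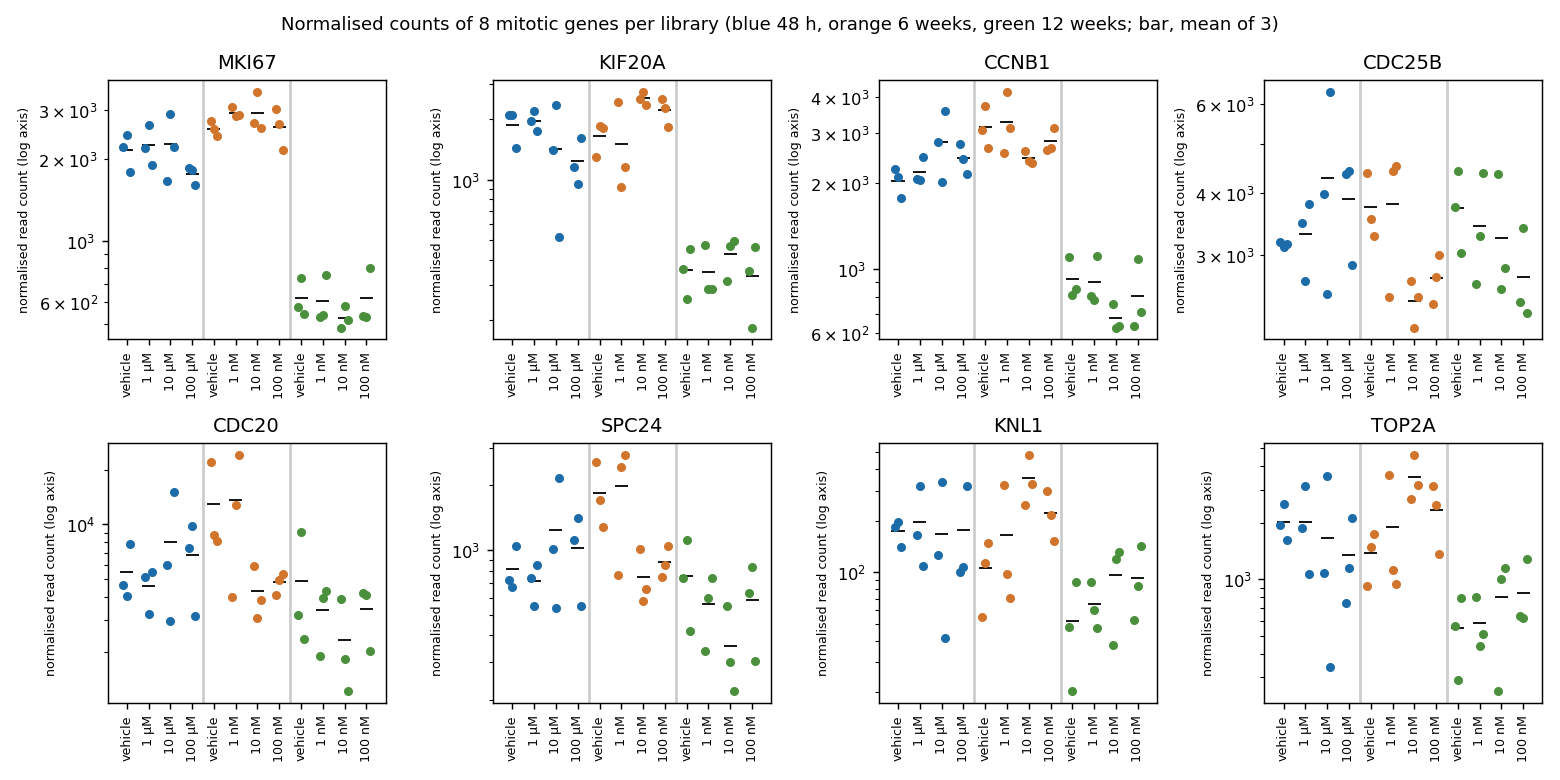
Normalised read count per library (log y axis) of 8 of the 46 genes in the 12 groups (x axis), with a bar at each mean of 3. MKI67 and KIF20A at 12 weeks lie below all libraries of the earlier times, CDC25B does not, and the 3 libraries of CDC20 and KNL1 within a group spread widely.

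At 48 h and 1 µM none of the 46 reached an unadjusted p of 0.05 in limma (background 0.0409% higher, 0.00817% lower), and none was apart from its vehicle (background 1.14% above, 1.17% below). At 10 µM, 2 were higher and 2 lower by unadjusted p (background 0.883% and 1.94%), and the same numbers were apart (2.67% and 3.52%). At 100 µM, 1 was higher and 2 lower by unadjusted p (0.703% and 1.29%), 2 lay wholly above (4.32%) and 5 wholly below (6.46%). The member medians were 0.06, -0.02 and -0.14 for the 3 doses, against an all-gene median of 0.03 at 100 µM. Leaving out 1 library moved them between -0.025 and 0.15 at 1 µM, between -0.15 and 0.15 at 10 µM and between -0.26 and -0.054 at 100 µM. At the ends of these ranges stood vehicle replicates 3 and 2 for 1 µM, dosed replicates 2 and 3 for 10 µM, and vehicle replicate 3 and dosed replicate 2 for 100 µM. In RPM the medians at 10 and 100 µM were -0.33 and -0.44, and those of all genes -0.30 and -0.26. Means above vehicle were found for 31, 23 and 16 of the 46, and for 48.5%, 51.5% and 53.7% of all genes. For the dose trend, a line through the 4 group means, 2 members sloped up and 3 down by unadjusted p (background 1.37% and 2.88%), and 16 of 46 slopes were above 0 (51.8% of all genes).

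Both higher doses shared the vehicle libraries, so a gene apart at both is not an independent repeat. Genes apart at both doses numbered 4, and the share of all genes apart at both was not counted. CDCA2 read 265, 245 and 242 in vehicle, 429, 336 and 558 at 10 µM and 431, 453 and 334 at 100 µM. The dosed libraries all lay above the vehicle, by 0.78 ± 0.23 and 0.68 ± 0.23 (adjusted p 0.960 and 0.993 in limma). KIF11, the kinesin that pushes spindle poles apart, read 628, 644 and 412 in vehicle, 803, 844 and 817 at 10 µM and 790, 732 and 745 at 100 µM. Its 6 dosed libraries were close together above the vehicle, and its differences of 0.58 and 0.46 were 0.37 and 0.25 without vehicle replicate 3. CDCA8 read 764, 784 and 776 in vehicle, 394, 723 and 408 at 10 µM and 526, 452 and 424 at 100 µM, below vehicle throughout. UBE2C read 2928, 2607 and 3270 in vehicle, 1966, 2223 and 1458 at 10 µM and 2501, 1763 and 1860 at 100 µM, also below throughout. ESPL1, the protease that cuts cohesin, was apart at 100 µM alone, with 735, 828 and 907 in vehicle and 649, 622 and 578 with PFOA. INCENP and KIF2C also lay wholly below vehicle at that dose. In the same dosed libraries of 100 µM the steady genes TPX2 and PRC1, a microtubule bundler, overlapped their vehicle, with TPX2 at 3034 ± 364 in vehicle and 2932 ± 176 at 100 µM (SD, n = 3).

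At 6 weeks and 1 nM no member reached an unadjusted p of 0.05 (background 0.107% higher, 0.148% lower), 1 lay wholly above vehicle (0.754%) and none wholly below (0.557%). Means were higher for 25 of the 46 and for 48.6% of all genes. The median of 0.026 lay between -0.16 (without dosed replicate 1) and 0.18 (without dosed replicate 3). The gene wholly above was MKI67, at 3076, 2860 and 2879 against 2732, 2557 and 2407, a log2 difference of 0.20 ± 0.23.

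At 10 nM the members differed from vehicle in both directions, without passing the test. In limma 8 were higher and 8 lower by unadjusted p, where 21.8% and 22.2% of all genes were, and 13 lay wholly above and 12 wholly below the vehicle, where 30.6% and 29.8% of all genes did. The members' counts are near this background. The median of the 46 was 0.35, against 0.05 over all genes, and 29 of the 46 differences were above 0 (51.8% of all genes). Without vehicle replicate 1 that median was 0.20, and without vehicle replicate 2 it was 0.54. The smallest adjusted p of a member in limma was 0.0953. DESeq2 on the recovered reads called 8 of the 46 (background 30.4%) and a fit of only the 2 groups 10 (38.9%). The count changed with single libraries outside the comparison: without replicate 1 of the 1 nM group, limma called 19 of the 46 at 10 nM (48.7%), and without its replicate 3 it called 6 (26.3%). In the dose trend at 6 weeks 7 members sloped up and 10 down by unadjusted p (21.6% and 23.1%), and 28 of 46 slopes were above 0 (51.7%). There DESeq2 called 7 members (26%), and limma without that replicate 1 called 24 (58.1%).

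Of the 13 members wholly above vehicle at 10 nM, 4 were spindle and cytokinesis genes, 3 kinases, 2 kinetochore and 2 checkpoint genes, and the others were INCENP and TOP2A. KNL1, the scaffold on which checkpoint proteins gather, read 55.0, 114 and 149 in vehicle and 248, 484 and 329 at 10 nM, a log2 difference of 1.79 ± 0.55. ANLN, the anillin of the cleavage furrow, read 200.4, 517 and 537 in vehicle and 926, 2130 and 1258 at 10 nM (1.82 ± 0.59). TOP2A read 913, 1482 and 1729, then 2665, 4591 and 3189 (1.35 ± 0.50). In all 3 genes the groups were apart. All 4 checkpoint genes had differences above 0, with a median of 1.08. So had 11 of the 12 spindle and cytokinesis genes, beside 51.8% of all genes.

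The lower genes included the anaphase axis, in which all 4 means were lower and 3 genes were apart (29.8% of all genes were wholly below). SPC24 read 2557, 1717 and 1275 in vehicle and 1005, 576 and 657 at 10 nM (-1.29 ± 0.46). AURKB read 3356, 1732 and 1835, then 1393, 810 and 980 (-1.09 ± 0.41). PTTG1 read 4560, 4764 and 4101, then 3469, 2522 and 2530 (-0.67 ± 0.25). CDC20 read 22113, 8767 and 8157, then 5942, 3075 and 3841. This was the lowest difference of the 46 (-1.498), and its vehicle libraries differed among themselves by more than the gap between the groups. INCENP, in 1 complex with AURKB, had means of 540 in vehicle and 831 at 10 nM, a difference of the opposite sign. MKI67 had 2565 and 2935.

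At 100 nM none was higher and 3 lower by unadjusted p (background 5.66% and 6.49%), and 7 lay wholly above and 11 wholly below (22.9% and 24.4%). Differences were above 0 for 28 of the 46 (51.7% of all genes). The 3 lower by unadjusted p were AURKB, SPC24 and CDC20. CDC20 read 4110, 4955 and 5369 against the vehicle values above (-1.28 ± 0.59, adjusted p 0.272 in limma). KNL1 read 296, 216 and 152 (1.12 ± 0.55), ANLN 1217, 806 and 654 (1.17 ± 0.59) and KIF4A, a chromosome-arm kinesin, 869, 758 and 654 against 359, 584 and 508 (0.67 ± 0.34). The 10 and 100 nM groups share their vehicle libraries. Without vehicle replicate 1, KNL1 stood at 0.71, ANLN at 0.71 and CDC20 at -0.82 for 100 nM. With the first component of all libraries as a covariate, chosen after seeing the data, KNL1 stood at -0.0023 and ANLN at -0.059. That component was taken with the group differences left in. It can therefore take up a PFOA difference, and these values cannot show that there was none. The 100 nM median of 0.26 was 0.03 without vehicle replicate 1.

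The direction of a member at 10 and 100 nM for 6 weeks followed the GC content of its longest transcript. Across the 46 genes, which share the same 6 libraries, Pearson's r between GC content and the 10 nM difference was -0.68, and over 11774 genes it was also -0.68. The 23 members with the lower GC content had a median of 0.72 and 20 of them were higher. The 23 with the higher GC content had a median of -0.22 and 9 were higher. The 4 checkpoint genes had a GC content of 39.4% to 43.2%, and the 4 genes of the anaphase axis 49.3% to 57.9%. Role and GC content were therefore not separate among these genes. At 100 nM r was -0.71 over the members and -0.68 over all genes, and at 1 nM -0.27 and -0.29. At 48 h r over the members was -0.73 for 1 µM, 0.074 for 10 µM and -0.016 for 100 µM. Over 11805 genes these were -0.52, 0.24 and 0.22. For the ratio of the 12-week to the 6-week vehicle r was -0.21 over the members and -0.135 over 11859 genes. All 23 members on either side of the median GC content were lower in that ratio (medians -1.10 and -1.36).

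The same pattern separated libraries of 1 group. In the vehicle of 12 weeks, replicate 3, with a ribosomal protein share of 16.4%, against replicate 2, with 21.4%, gave r of -0.83, with differences of 2.35 for CENPE, 2.05 for KNL1, 1.44 for TOP2A, -1.41 for SPC24 and -1.96 for CDC20. At 48 h and 10 µM, replicate 2 against replicate 3 (10.1% and 20.8%) gave 3.38 for TOP2A and -2.35 for CDC20. In reads, TOP2A had 4634 and 195 in these 2 libraries. Within groups the pair of libraries with the lowest and highest ribosomal share gave a negative r in all 12 groups, from -0.83 to -0.00657. At 6 weeks the 10 nM libraries had ribosomal shares of up to 13.4%, and the vehicle libraries of at least 17.2%. With a correction for GC content and length, chosen after seeing the data, the 10 nM median of the 46 was -0.026, KNL1 stood at 0.81, ANLN at 0.98, SPC24 at -0.83, AURKB at -0.03 and PTTG1 at -0.09. What sets GC-linked differences between libraries was not tested.

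**Figure D4:**
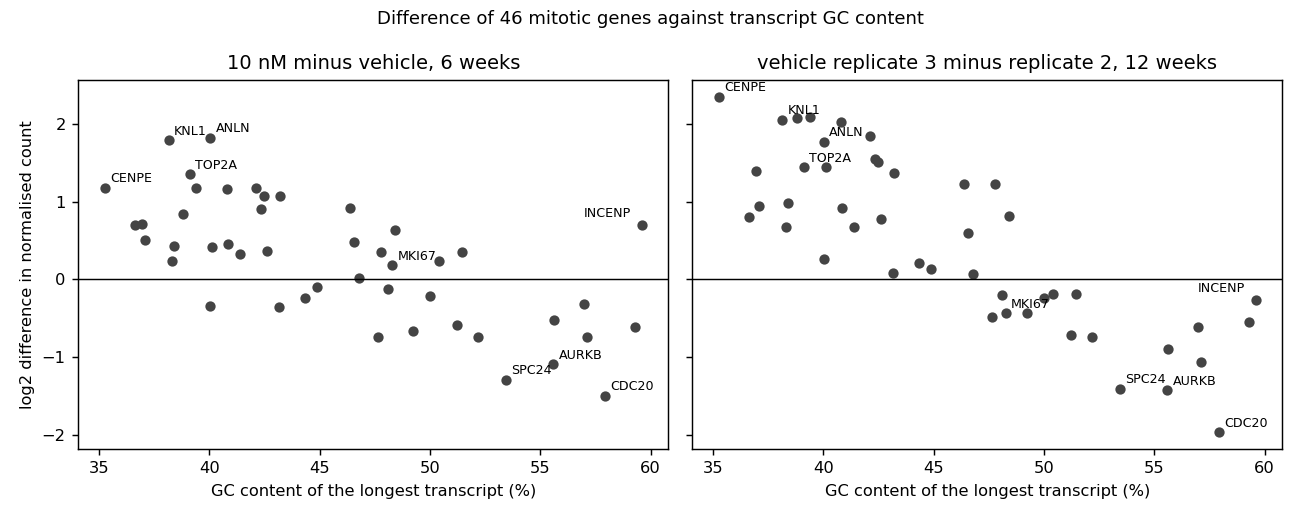
Log2 difference in normalised count (y axis) of the 46 genes against transcript GC content (%, x axis), for 10 nM minus vehicle at 6 weeks (left) and for vehicle replicate 3 minus replicate 2 at 12 weeks (right). Points slope down in both panels (r of -0.68 and -0.83), although the right panel compares libraries of 1 group.

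Members also varied unequally inside groups. At 6 weeks the within-group SD on the log2 scale was 0.139 for TPX2, 0.151 for PRC1 and 0.179 for MKI67, whose transcripts have a GC content of 46.8%, 48.1% and 48.3%. It was 0.836 for ANLN (40.0%), 0.835 for the checkpoint protein MAD2L1 (39.4%) and 0.813 for CDC20 (57.9%). The median over the 46 was 0.419, and over all genes tested 0.500. At 12 weeks these medians were 0.478 and 0.542.

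At 12 weeks no member reached an unadjusted p of 0.05 at 1, 10 or 100 nM. At 1 nM the background was 0.0894% higher and 0.106% lower, and no member was apart (1.66% above, 0.805% below). At 10 nM the background was 0.78% and 0.585%, no member lay wholly above (2.06%) and 3 lay wholly below (1.22%). At 100 nM it was 0.878% and 1.45%, and 1 member lay wholly above (2.07%) and none below (2.57%). The medians of the 46 were 0.16, -0.01 and 0.31, and 31, 23 and 33 of the 46 differences were above 0, as were 50.2%, 51.1% and 50.2% over all genes. Without vehicle replicate 2 the medians were -0.057, -0.25 and 0.17. At 10 nM the median was 0.15 without dosed replicate 1. Pearson's r with GC content over the 46 was -0.59, -0.48 and -0.71. At 100 nM 22 of the 23 members with the lower GC content were higher (median 0.62), and 11 of the 23 others (median -0.0052). In the dose trend no member had an unadjusted p under 0.05 (0.967% up, 1.25% down), and 27 of 46 slopes were above 0 (49.9%).

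The 3 members apart at 10 nM were CDC25C, CCNB1 and PRC1. CDC25C read 351, 457 and 327 in vehicle and 298, 197 and 177 at 10 nM (-0.78 ± 0.37). CCNB1 read 1103, 813 and 857, then 759, 626 and 635 (-0.45 ± 0.29). PRC1 read 1126, 969 and 845, then 796, 827 and 719 (-0.32 ± 0.30), and in RPM its difference was 0.06. At 100 nM it was KIF2C, a kinesin that takes microtubules apart at kinetochores, with 380, 483 and 424 in vehicle and 550, 522 and 633 with PFOA (0.41 ± 0.27). MKI67 overlapped at every dose, at 621 ± 104 in vehicle, 610 ± 128 at 1 nM, 529 ± 48.2 at 10 nM and 622 ± 153 at 100 nM (SD, n = 3). The difference of 12 minus 6 weeks in the PFOA effect passed for no member at any dose, with medians of 0.10, -0.33 and 0.18. They were above 0 for 27, 10 and 33 of the 46, and for 47.8%, 49.6% and 49% of all genes. Pearson's r with GC content over the members was -0.38, 0.78 and 0.41. No member had an unadjusted p under 0.05, against 0.0914% of genes upward and 0.116% downward at 1 nM, 0.183% and 0.166% at 10 nM, and 0.183% and 0.382% at 100 nM.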

How the data were processed

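Messenger RNA of 36 libraries (3 replicates in each of 12 groups) was measured with 150 bp paired reads. The authors deposited a signal for each gene, that is, read counts scaled with 1 size factor per library. HISAT, Bowtie2, DESeq2 and the build GRCh38.p14 are named, without a role, per the submitters' processing notes. Which tool counted the reads, and whether strand was used, is not given in the sources used here, so overlapping and antisense genes may share reads. Whole reads were recovered from each library's step (tolerance 0.01), which gave the depths and the counts for edgeR 4.0.16 and DESeq2 1.42.0. Of the entries, 1 without a gene was left out. limma 3.58.1 in R 4.3.3 was fitted to the 12 libraries of a table on log2(signal + 1), for genes with a mean of at least 10, two-sided, with Benjamini-Hochberg adjustment over all genes and a threshold of 0.05. It was tested on simulated counts drawn independently for each gene and library. These held no difference shared by many genes of a library, so that check does not cover the spread seen here. The difference between 12 and 6 weeks was fitted over both tables. Members were named where their libraries were apart from vehicle, up to 3 in each direction by unadjusted p; others were chosen after their values were seen. The members and lists were chosen with earlier results of these data known. GC content and length are from GENCODE release 29, for 96.5% of genes and all 46 members.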

Additional observations from a re-analysis of the deposited data

How the results depend on the processing

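With a mean of at least 10 in each table, depth did not limit detection of any of the 46 genes, but 3 libraries a group and the spread between them limit every comparison. Pseudocounts of 0.1 and 10, no filter, a mean of at least 50 and edgeR left every count of called members at 0, and quantile normalization did too. The labels tie replicates of different groups by number alone. The mean residual correlation of same-numbered libraries was at most 0.145. Single pairs ran from -0.892 to 0.892, so these means cannot show whether replicates were paired. The replicate block called 0 members in all 15 comparisons. The median of the vehicle ratio of 12 over 6 weeks, -1.32, lay between -1.34 and -1.11 without 1 library.

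The first residual component, a covariate at right angles to the groups, leaves differences unchanged and shrinks their errors, so its p-values are too small. With it, limma called 13 members at 10 µM, 7 at 100 µM and 18 in the trend at 48 h; 28 at 10 nM, 26 at 100 nM and 31 in the trend at 6 weeks; 7 at 10 nM, 8 at 100 nM and 9 in the trend at 12 weeks; and 5 and 1 for the difference between times at 10 and 100 nM. With the replicate block as well, these counts were 16, 8 and 20 at 48 h (26.3%, 22.6% and 38.3%). They were 28, 26 and 31 at 6 weeks (69%, 58.7% and 69.4%), and 7, 8 and 8 at 12 weeks (27.4%, 20.6% and 27.9%). For the difference at 10 nM the count was 4 (9.39%). At 6 weeks and 10 nM the fit of 2 groups called 10 (38.9%) and DESeq2 called 8 (30.4%), and DESeq2 called 7 in the trend (26%). Without 1 library, 0 to 19 members were called at 10 nM (48.7% of all genes where 19 were) and 0 to 24 in the trend (58.1% where 24 were). The cause was not tested.

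Other settings were chosen after seeing the data. In RPM the member medians were -0.33 at 10 µM and -0.44 at 100 µM for 48 h, 1.01 at 10 nM and 0.81 at 100 nM for 6 weeks, and 0.37 at 10 nM and 0.60 at 100 nM for 12 weeks. The medians of all genes moved with them, to -0.30, -0.26, 0.72, 0.59, 0.39 and 0.29, which leaves members relative to all genes at -0.033, -0.17, 0.30, 0.23, -0.027 and 0.30. The vehicle medians were then -1.34 for 12 weeks and -0.18 for 6 weeks over 48 h, and PRC1 at 12 weeks and 10 nM turned to 0.060. The first component of all libraries was taken with the group differences left in, so it can take up a PFOA difference. With it as a covariate the 6-week medians were -0.12 at 10 nM and -0.12 at 100 nM, and at 100 nM KNL1 turned to -0.0023 and ANLN to -0.059. With the GC content and length correction they were -0.026 and -0.059. The correlation with GC content at 10 nM was -0.59 with quantile normalization, 0.48 with the component of all libraries, -0.030 with the correction, and -0.78 to -0.55 without 1 library. Without 1 library the 100 nM median at 6 weeks was 0.030 to 0.43, and the vehicle median of 6 weeks over 48 h -0.010 to 0.33.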
